A study of Mus musculus with 24 samples.

Results

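Chromatin regions that are open in unlabelled lymph node CD8 T cells and weak or missing in their labelled counterparts were followed into melanoma. There were 768 such regions among 22754 regions found in 6 lymph node libraries. They were chosen by a rule on those 6 libraries, each of which had a list of 10000 or more peaks. The strongest 14000 peaks of each list, ordered by the deposited −log10 p, were kept, and windows of 501 bp were set around their summits, strongest rank first, with overlapping windows dropped. A region was selected on a kept peak in the DN library of the draining node (DLN) and in the DN library of the non-draining node (NDLN), and on no kept peak in the 4 LAG3_SP and TDT_SP node libraries. The regions are called node DN regions here.

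Bulk Omni-ATAC, an assay whose Tn5 transposase cuts and tags accessible DNA, was applied to sorted CD8 T cells of C57BL/6-background mice with the genotype Lag3-iCreERT2 Rosa26-LSL-tdTomato. In these animals the Lag3 locus drives a tamoxifen-dependent Cre, and Cre switches on the red protein tdTomato for good. A cell therefore carries the label if it expressed Lag3 while tamoxifen was present, and it keeps the label after LAG3 is lost. All mice, DN donors included, bore subcutaneous B16-F10 melanoma, received 2 mg of tamoxifen per injection on days 8 to 10 after implantation, and were harvested on day 19. DP cells were LAG3+ tdTomato+ and came from tumor, with 4 libraries. The LAG3_SP libraries, against their own name, are described by the labels as LAG3- tdTomato+, with 3 from tumor and 1 from each node. For TDT_SP libraries the labels give tdTomato+ and no LAG3 state, with 3 from tumor and 2 from each node. DN cells were LAG3- tdTomato-, with 4 libraries from tumor and 2 from each node. DP, LAG3_SP and TDT_SP are called the labelled groups. This follows the description of the LAG3_SP libraries. If their name held instead, these cells would be LAG3+ and without tdTomato, and each value over the labelled groups or the labelled libraries would mix cells with and without the label. All 24 libraries carry the same batch label. Whether replicates are separate animals is not stated, so p-values measure only the spread between these libraries. In bulk samples, fewer cells with an open region and less opening per cell cannot be told apart.

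LAG3 is an inhibitory receptor that T cells display after antigen stimulation, and it stays high in exhausted cells. CD8 T cells that have not met antigen hold open many distal enhancers near genes of quiescence, homing and survival. Stimulated cells close part of this repertoire and open enhancers bound by AP-1, NFAT and other signal-driven factors. Accessibility at a promoter is usually shared widely between cell states, and accessibility at distal enhancers differs more.

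Only 3 of the members that the naming rule picked, for their tumor call or for a list gene nearby, lay over a RefSeq promoter that could be printed. They do not stand for all promoters under node DN regions. The sequences are given from RefSeq on build GRCm38.p6, from 250 bases before to 50 bases after the transcription start, 5′ to 3′ on the gene's own strand. Capitals mark matches, on either strand, to the motif letters searched.

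Osgepl1: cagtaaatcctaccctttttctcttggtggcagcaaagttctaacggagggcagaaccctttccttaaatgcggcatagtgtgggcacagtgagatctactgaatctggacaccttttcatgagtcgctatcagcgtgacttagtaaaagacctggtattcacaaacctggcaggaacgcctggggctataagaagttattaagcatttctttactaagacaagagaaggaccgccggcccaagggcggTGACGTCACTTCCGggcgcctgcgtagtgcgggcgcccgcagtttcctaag
Cd160: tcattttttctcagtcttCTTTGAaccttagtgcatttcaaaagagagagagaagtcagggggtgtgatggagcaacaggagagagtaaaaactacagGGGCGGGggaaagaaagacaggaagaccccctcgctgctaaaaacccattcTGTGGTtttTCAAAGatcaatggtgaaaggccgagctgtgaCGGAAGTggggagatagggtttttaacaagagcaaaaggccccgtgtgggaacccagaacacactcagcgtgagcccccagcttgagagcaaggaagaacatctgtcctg
Parp12: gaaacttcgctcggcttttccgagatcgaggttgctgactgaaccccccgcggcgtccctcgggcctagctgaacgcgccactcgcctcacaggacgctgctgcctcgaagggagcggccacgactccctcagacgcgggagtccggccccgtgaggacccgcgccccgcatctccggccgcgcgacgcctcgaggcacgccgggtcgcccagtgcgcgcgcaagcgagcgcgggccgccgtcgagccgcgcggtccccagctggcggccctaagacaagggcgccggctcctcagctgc

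Osgepl1, an enzyme of mitochondrial tRNA modification, has its promoter at chr1:53313374-53313673 on the plus strand, and the region chr1:53313349-53313849 covered all 300 bases of it. The promoter held 1 CRE/CREB match (TGACGTCA) that overlapped 1 ETS match (CGGAAGT). CRE/CREB letters occurred in 1.79% and ETS letters in 6.42% of 32851 RefSeq promoters. Cd160, a receptor of the immunoglobulin superfamily found on NK and CD8 T cells, has its promoter at chr3:96814472-96814771 on the minus strand. The region chr3:96814326-96814826 covered all 300 bases, which held 2 TCF-1/LEF-1 matches (CTTTGA), 1 RUNX match (TGTGGT), 1 ETS match and 1 KLF/SP match (GGGCGGG). TCF-1/LEF-1 letters occurred in 16% of all promoters, RUNX letters in 16.8% and KLF/SP letters in 25.6%. Parp12, an interferon-induced ADP-ribosyltransferase, has its promoter at chr6:39118300-39118599 on the minus strand, of which the region chr6:39118023-39118523 covered 224 bases. It held none of the 11 motifs, the others being AP-1 (TGANTCA), FOXO (GTAAACA), IRF (GAAA, any 2 bases, GAAA), NRF1 (GCGC, any base, TGCGC), E-box (CACGTG) and NFY (CCAAT). GC content was 51% at Osgepl1, 49% at Cd160 and 73.7% at Parp12, with 15, 6 and 46 CpG dinucleotides. A match describes these letters only, and it is not a binding site.

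Over all node DN regions, 28 RefSeq promoters were touched by at least 1 bp, against 9081 touched by any of the 22754 regions. Their median GC content was 52%, against 62% for the promoters under any node region and 52.7% for all RefSeq promoters. The 28 held a median of 10.5 CpG dinucleotides, against 23 under any node region and 7 among all promoters. KLF/SP letters were in 9 of the 28 (32.1%), against 51.5% of the promoters under any node region. NFY letters were in 5 of the 28 (17.9%), against 41.6%. AP-1 letters were in 4 of the 28 (14.3%), against 4.24%. NRF1 letters and FOXO letters were in none of the 28, against 12.8% and 2.53% under any node region, and TCF-1/LEF-1 letters were in 5 (17.9%), against 11.3%. With 28 promoters these shares are descriptions.

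The node DN regions rarely lay at promoters. Of the 735 that lay on chromosomes with start sites in the table used here, 24 (3.27%) overlapped a promoter, against 7141 of 22060 node regions in all (32.4%). The same share was 30.9% for 257 regions selected in the same way for both LAG3_SP node libraries, and 13.7% for 239 regions selected for both TDT_SP node libraries. The median distance to the nearest start was 22.7 kb for node DN regions, 4.56 kb for LAG3_SP regions, 14.6 kb for TDT_SP regions and 6.61 kb for all node regions. More than 50 kb from any start lay 26.1% of the node DN regions and 15.5% of all node regions. Location inside a protein-coding gene was alike, at 427 of 768 (55.6%) against 55.1% of all node regions. Only 34 of the 768 (4.43%) had another node DN region within 10 kb. The rule used no position, and no test was made of these shares.

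**Figure D1:**
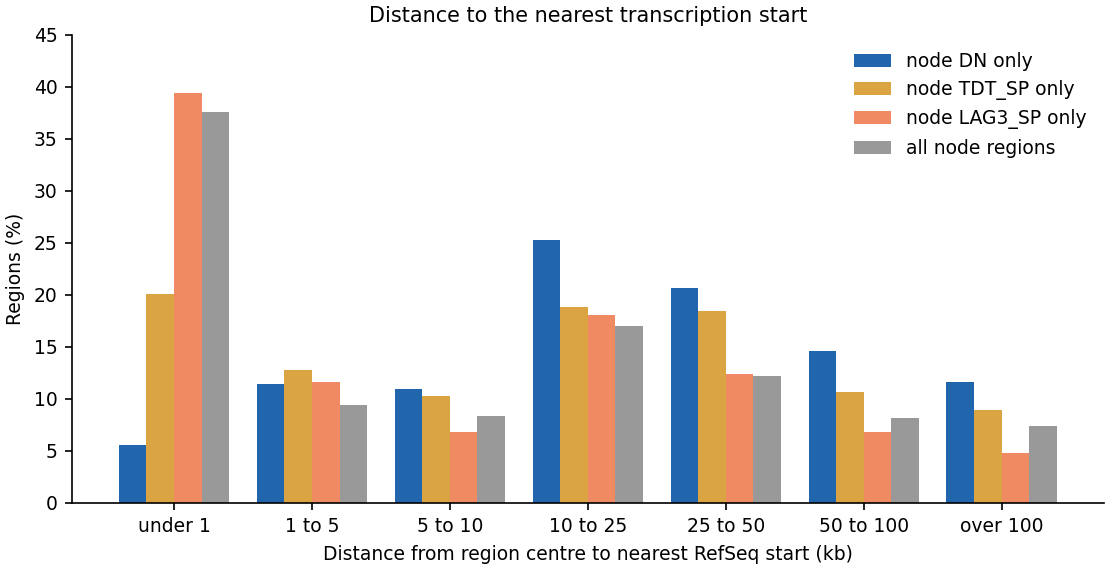
Share of regions (%, y axis) by distance from the region's centre to the nearest RefSeq transcription start (kb, x axis), for node DN regions, for regions of the TDT_SP and LAG3_SP node libraries selected likewise, and for all node regions. Under 1 kb lay 5.58% of the node DN regions and 37.6% of all node regions, and every bin from 1 kb outwards held a larger share of the node DN regions than of all node regions.

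The word "only" holds for the strongest 14000 peaks and not for the whole lists. In the whole list of the DLN LAG3_SP library, 648 of the 768 regions (84.4%) had a weaker peak, at a median rank of 19867 of 34123. The DLN TDT_SP list had a peak at 524 (68.2%), at a median rank of 19573 of 29857, and the NDLN TDT_SP list at 624 (81.2%), at a median rank of 20066 of 35175. The NDLN LAG3_SP list was short, with 14244 peaks, and had a peak at 3. In the DN lists the median rank was 10511 in DLN and 10379 in NDLN, so most node DN regions were of middling strength in the DN cells too. At 26 regions no whole labelled list had a peak. Of these 26, 22 (84.6%) had no kept peak in tumor, against 53.8% of all 768. All of this follows from the values that chose the regions and carries no test.

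**Figure D2:**
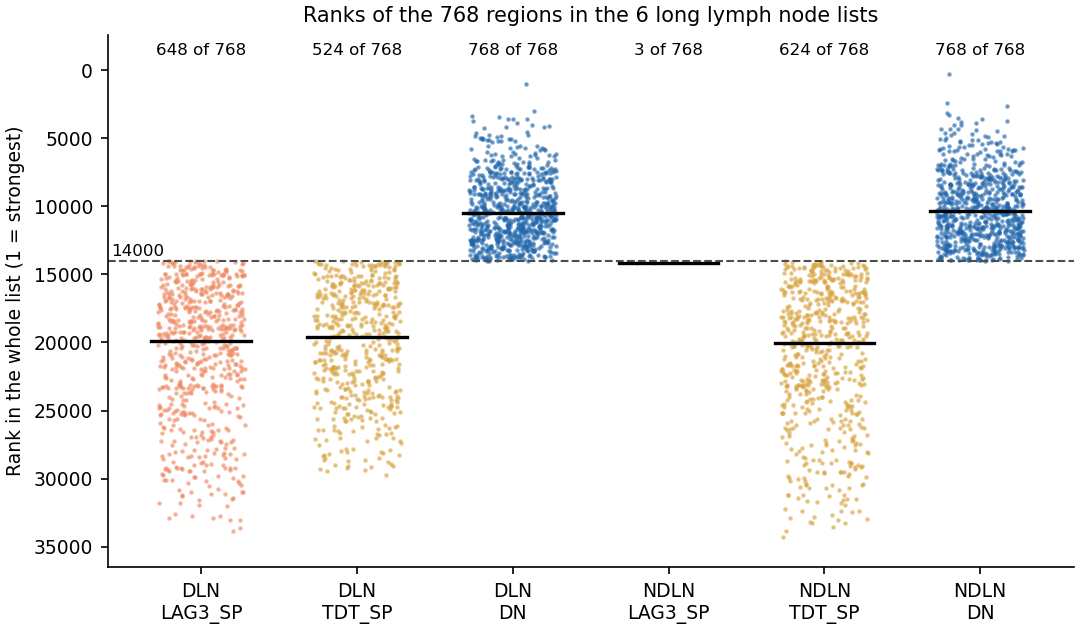
Rank of each node DN region in the whole peak list of each long lymph node library (y axis, 1 is the strongest peak, so strong peaks are at the top), with 1 point per region that has a peak, the number with a peak above, the median as a black bar, and the 14000 limit dashed. DN ranks lie above the limit by the rule, with medians of 10511 in DLN and 10379 in NDLN, and most regions have a weaker peak in the DLN LAG3_SP, DLN TDT_SP and NDLN TDT_SP lists.

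At the edge of the rule, the Acot7 region chr4:152201510-152202010 was kept with its weaker DN rank at 13992, and the Rfx4 region chr10:84903847-84904347 was not, with its weaker DN rank at 14005. On the labelled side, the Mad2l1 region chr6:66480163-66480663 was kept with its best labelled rank at 14003, and the Bcap29 region chr12:31621531-31622031 was dropped at 13997. Such pairs differ by a few ranks.

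The second node libraries were not used by the rule and give a separate reading, at low depth. The DLN TDT_SP replicate 2 list, with 3909 peaks, had a peak at 3 node DN regions (0.391%), against 15.8% of all node regions. In the NDLN DN replicate 2 list, with 6613 peaks, a peak lay at 82 node DN regions (10.7%), against 26.1% of all node regions. With the NDLN DN list shortened to 3909 peaks, 25 node DN regions (3.26%) and 16.2% of all node regions had one. The DN library thus held more of the node DN regions than the TDT_SP library at equal length, with 1 library of each kind. The NDLN TDT_SP and DLN DN replicate 2 lists had 321 and 301 peaks and touched no node DN region.

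The strongest node DN regions lay mostly inside genes, and most had no kept peak in tumor. A rank value is used for strength from here on: it runs from 1 for the strongest peak of a list to near 0 for the weakest kept one, and it is 0 where no kept peak overlaps. It orders peaks within a library and does not measure an amount of open chromatin. The first of the 10 strongest was chr5:71903338-71903838 in Gabrb1, a GABA-A receptor subunit, with rank values of 0.762 in DLN DN and 0.827 in NDLN DN cells. Next came chr14:121552527-121553027 in Dock9, an exchange factor for Cdc42, with 0.734 and 0.69. The others were in or near Nipa1 (a magnesium transporter), Atp9b (of the lipid flippase family), Prag1 (a pseudokinase), Tnks (tankyrase), Bod1l, Lix1, 4930453N24Rik and Fez2. The lower of the DN rank values had a median of 0.656 over these 10, and of 0.169 over all 768. In tumor, 8 of the 10 had no kept peak in any of the 12 long libraries, against 53.8% of all 768. The other 2, at Nipa1 and Atp9b, had one in DN libraries and in no labelled library.

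Several genes had more than 1 node DN region nearby. Trio, a guanine nucleotide exchange factor, had 4 of its 16 node regions among them, at chr15:27795865-27796365, chr15:27796518-27797018, chr15:27800117-27800617 and chr15:27925767-27926267. Cblb, the E3 ligase that restrains T cell receptor signals, had 3 of 19, and Btg1, an antiproliferative gene of resting lymphocytes, had 3 of 18. Cpa3, a mast cell protease gene, had 3 of 3. Ado, Cyria, Dock9, Ext1, Frmd4b, Mfhas1, Prag1, Serpini1 and St8sia1 had 3 each. Of the 40 regions at these 13 genes, 25 (62.5%) had no kept peak in any tumor library, against 53.8% of all 768. All 3 regions at Btg1 and all 3 at Cblb were among those 25, and so were all 3 at Dock9.

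Genes with known roles in T cells were nearest to 21 of the regions, counted over 17 lists of such and of control genes. Node DN regions made up 3.38% of all node regions, and this share is the background for each list. The naive and memory list had 4 node DN regions of 151 (2.65%), at Bach2 (a repressor that holds cells in a memory-like state), Foxp1 (a keeper of quiescence) and Ccr7 (the receptor for entry into lymph nodes). The quiescence and survival list had 5 of 118 (4.24%), at Klf6, Btg1 and Foxp1. The exhaustion list had 3 of 83 (3.61%), with 2 inside Tox, a factor of exhausted cells, and 1 at the Cd160 promoter. The T cell identity list had 3 of 119 (2.52%), near Cd2, Cd28 and Ets1. The NK and innate list had 3 of 29 (10.3%), with 2 at Cd226, an activating receptor, and 1 in Klre1, a lectin-like NK receptor. The progenitor exhausted list had 1 of 44 (2.27%) in Il21r, the CD4 and Treg list 1 of 29 (3.45%) near Cd40lg, the effector list 1 of 58 (1.72%) near Fasl, and the T cell receptor signal list 1 of 88 (1.14%) in Nfkb1. The lists of tissue residency, interferon response, cell cycle, B cell, myeloid and dendritic, melanoma, stroma and endothelium, and housekeeping genes had none, out of 6 to 48 node regions each. All of these counts rest on 5 regions or fewer, and the NK and innate share stood farthest from the background.

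Of the 21 regions near list genes, 14 (66.7%) had no kept peak in any tumor library, against 53.8% of all node DN regions. Among the 14 were both Cd226 regions, all 3 Btg1 regions, the Klf6 and Foxp1 regions and 1 of the 2 at Bach2. With 21 regions nothing is read from this share. The Cd2 region, chr3:101297221-101297721 and 9.53 kb from that adhesion receptor gene, reached the highest rank value of the 21 in tumor. It had no kept peak in the 3 DP and the 3 LAG3_SP libraries, 0.333, 0.221 and 0 in TDT_SP, against 0.543, 0.761 and 0 in DN. Both DN replicate 4 and TDT_SP replicate 3 were at 0, so the groups overlapped, and the difference of the labelled mean from DN was -0.37 (limma adjusted p = 0.0918). The Cd160 promoter had no kept peak in the 9 labelled libraries, against 0.243, 0.124 and 0 in DN (difference -0.12, limma adjusted p = 0.132). The second Bach2 region, chr4:32423610-32424110, had none in the 9 labelled libraries, against 0.0716, 0.181 and 0 in DN (difference -0.08, limma adjusted p = 0.239). The Cd160 region and this Bach2 region could be tested through their DN peaks alone, so they could only come out lower in labelled cells. None of the 5 regions near list genes that could be tested was called.

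The libraries differed in the length of their lists, with 14244 to 48268 peaks in 18 long lists and 301 to 6613 in 6 short ones, which were left out of the fits. The files hold no read counts, so depth is unknown. In each long library, 4 to 6 of 6 T cell marker genes had a peak among the strongest 14000 within 1 kb of the gene, with Cd3d and Cd2 in all of them. Cd8a had no such peak in DLN LAG3_SP, a library used by the rule. Cd8b1 had none in tumor DP replicates 1 and 4 and tumor LAG3_SP replicate 2. B cell markers had 0 to 3 of 8 in the labelled libraries and 0 or 1 in DN. CD4 and Treg markers had 0 to 3 of 3 in the labelled libraries and 0 or 1 in DN. Cd4 and Foxp3 both had a peak in DLN LAG3_SP and in tumor LAG3_SP replicate 3. The melanoma markers Mitf and Pmel had a peak in every long library, lymph nodes included, and Mlana had one in tumor LAG3_SP replicates 1 and 2 and in no other. Of 4 NK markers, Fcer1g or Tyrobp had a peak in 3 DP, 2 LAG3_SP and 1 TDT_SP library of the tumor, against none in DN, and the other 2 had none in any long library. Myeloid and dendritic markers had 0 to 2 of 9 in the labelled libraries and 0 or 1 in DN, and stroma and endothelium markers 1 to 3 of 6 and 1 or 2. The part of these markers in the results was not tested.

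In tumor, most node DN regions had no kept peak in any group, and DN libraries held more of them than nearly all labelled libraries. Among the strongest 19000 peaks of each library, 13.8%, 12% and 9.51% of the node DN regions had a peak in DP, 10.9%, 10.5% and 6.77% in LAG3_SP, and 15.5%, 17.1% and 11.8% in TDT_SP, against 27.6%, 25.5% and 17.1% in DN. The means were 11.8% ± 2.16 in DP, 9.42% ± 2.3 in LAG3_SP and 14.8% ± 2.67 in TDT_SP, against 23.4% ± 5.59 in DN (SD, n = 3 each). DN replicate 4 and TDT_SP replicate 2 both stood at 17.1%, and every other DN library stood above every labelled one. Over all node regions the shares were 64.3% to 70.4% in DP, 61% to 68.3% in LAG3_SP and 68% to 72.8% in TDT_SP, against 66% to 74.7% in DN. The LAG3_SP regions of the nodes were held by 80.3% ± 4.27 in tumor DP, 76.3% ± 3.37 in LAG3_SP and 79% ± 4.49 in TDT_SP, against 73.9% ± 5.06 in DN (SD, n = 3 each). The TDT_SP regions of the nodes were held by 49.5% ± 6.35 in tumor DP, 48.7% ± 4.85 in LAG3_SP and 57.6% ± 4.96 in TDT_SP, against 52.4% ± 11.8 in DN (SD, n = 3 each). With the strongest 14000 peaks, node DN regions were held by 3.39% to 6.12% in the 9 labelled libraries, against 7.29% to 10.2% in the 3 DN libraries, and the groups did not overlap. At 14000 peaks, DP held 53.7% to 58.2% of all node regions, LAG3_SP 51% to 56.3% and TDT_SP 56.8% to 60.1%. DN held 55.4% to 61.3% of all node regions, so labelled and DN libraries overlapped there.

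**Figure D3:**
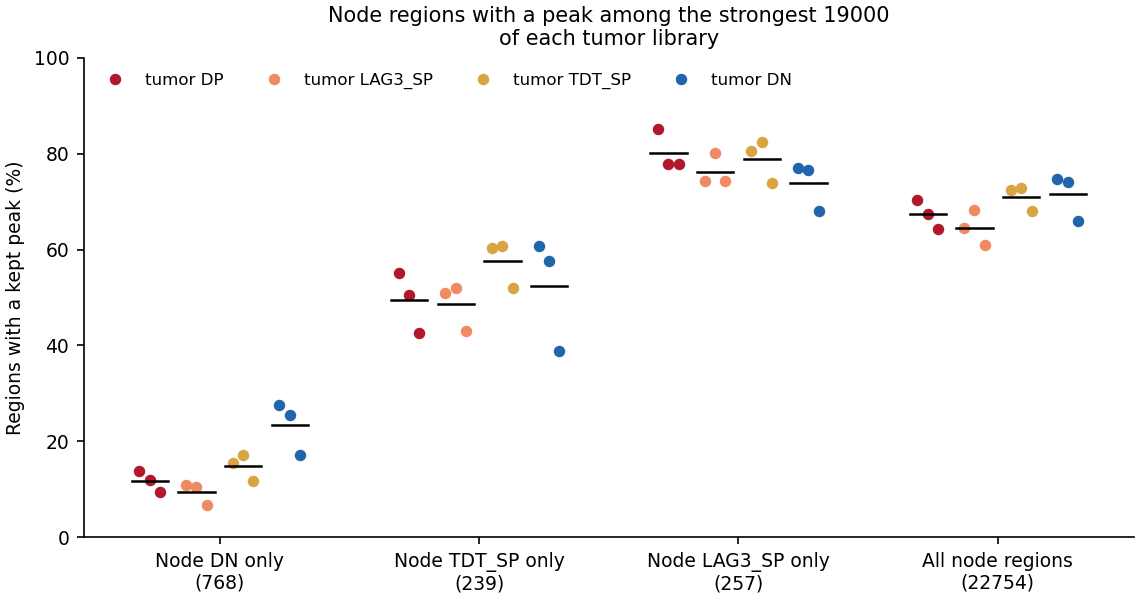
Share of regions with a kept peak (%, y axis) in each long tumor library, 1 point per library with the group mean as a bar, for node DN regions, for TDT_SP and LAG3_SP node regions selected likewise, and for all node regions. Node DN regions are held by 6.77% to 17.1% in labelled libraries, against 17.1% to 27.6% in DN libraries, far below the 61% to 74.7% of all node regions.

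The whole tumor lists are set side by side here by their length. The DP replicate 1 list of 45286 peaks held 46.9% of the node DN regions, the LAG3_SP replicate 2 list of 48268 held 45.4%, and the TDT_SP replicate 1 and 2 lists of 37166 and 37485 held 46.6% and 47.5%. Against these, the DN replicate 1 list of 32717 held 64.5% and the DN replicate 2 list of 42451 held 78.8%. Among the shorter lists, LAG3_SP replicate 3 with 19679 peaks held 7.81%, against 18.1% in DN replicate 4 with 19771. TDT_SP replicate 3 with 22994 peaks held 17.6% and DP replicate 4 with 24050 held 14.7%. LAG3_SP replicate 1 with 25056 and DP replicate 2 with 26008 held 19.1% and 22.7%, more than the shorter DN replicate 4 list. The 3 DN lists thus held more of the node DN regions than labelled lists of about their length, and DN replicate 4 held less than some longer labelled lists. Of all node regions, the whole lists of DN replicates 1, 2 and 4 held 89.9%, 94.5% and 67%. The labelled whole lists held up to 90% of them in DP, 62% to 89.5% in LAG3_SP and 72.4% to 89.5% in TDT_SP. Whether the DN lead differs between node DN regions and all node regions was not tested. Among the strongest 4000 peaks almost no node DN region was found, with 0% to 0.391% in every tumor library, against 16.3% to 18.8% of all node regions.

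Counted by library, 413 of the 768 node DN regions (53.8%) had no kept peak in any of the 12 long tumor libraries, against 11.7% of all node regions. A kept peak in labelled libraries and in no DN library was found at 54 (7.03%), against 6.23% of all node regions. A kept peak in DN libraries and in no labelled library was found at 120 (15.6%), against 5.02%. The 9 labelled libraries offered more chances of a peak than the 3 DN libraries. Both kinds of library held 181 (23.6%), against 77% of all node regions, and all 12 libraries held 11 (1.43%), against 43.8%. Of the 24 members over promoters, 15 had a kept peak in both kinds of library and 3 had none in tumor. Of the 427 regions inside genes 55% had none in tumor, and of the 341 outside genes 52.2%.

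**Figure D4:**
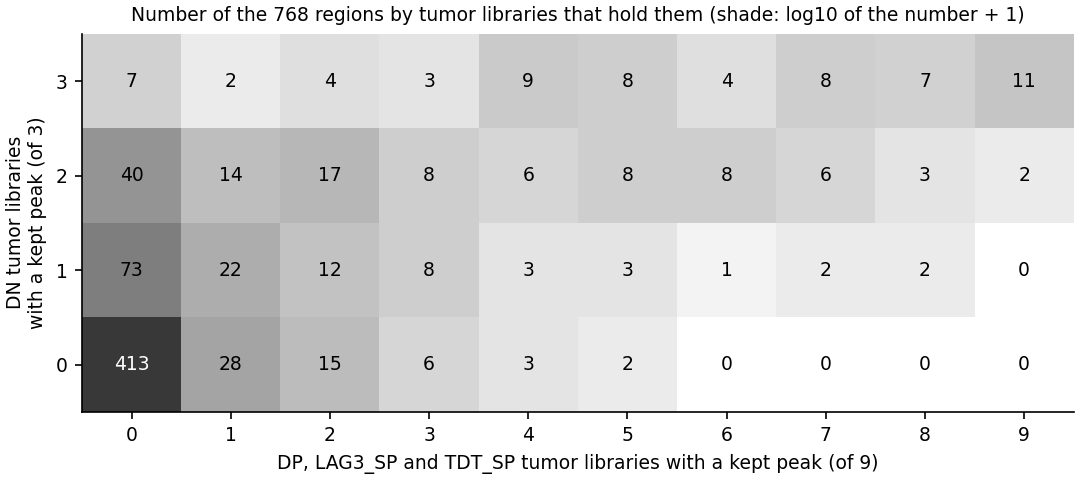
Number of node DN regions by how many of the 9 labelled tumor libraries (x axis) and how many of the 3 DN tumor libraries (y axis) had a kept peak there, shaded by the log10 of the number + 1. The largest cell holds the 413 regions with no kept peak in tumor, and the column of 0 labelled libraries holds 73, 40 and 7 regions with a peak in 1, 2 and 3 DN libraries.

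Regions with a kept peak in at least 2 of the 12 long tumor libraries were compared between groups with limma, over 19037 node regions at once. Only 254 of the 768 node DN regions passed that filter, and 514 did not. The p-values were adjusted over all 19037 by the Benjamini-Hochberg method, and an adjusted p under 0.05 counts as a call. The DN libraries are shared by all comparisons. Every call among the node DN regions was lower in labelled cells. In DP minus DN, 7 of 254 were lower (2.76%) and 0 higher, against 2.2% lower and 2.79% higher among all regions tested. In LAG3_SP minus DN, 9 were lower (3.54%) and 0 higher, against 3.1% and 3.47%. In TDT_SP minus DN, 1 was lower (0.394%) and 0 higher, against 0.525% and 0.189%. For the mean of the labelled groups minus DN, 18 were lower (7.09%) and 0 higher, against 2.97% and 2.95%. Of these 18, 12 had no kept peak in any labelled library and passed the filter through DN libraries alone. Among the 254 there were 47 such regions, which can only come out lower in labelled cells, so nothing is read from these shares or from the direction of the calls. With no filter, 8 of all 768 were lower for the labelled mean (1.04%), against 1.89% of all 22754 regions. With only the 2 groups compared in the fit, 3 node DN regions were lower in DP, against 0.714% of all regions, and 0 of all 19037 regions were called in LAG3_SP or in TDT_SP. Each LAG3_SP and TDT_SP call given here therefore rests on a spread estimated over all 4 groups.

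At an unadjusted limma p under 0.05, 47 node DN regions were lower and 4 higher in DP, against 2133 and 1502 of all 19037 regions. In LAG3_SP 58 were lower and 5 higher, against 2979 and 1623. In TDT_SP 41 were lower and 3 higher, against 1060 and 772, and for the labelled mean 62 were lower and 1 higher, against 2188 and 1505. The same filter lies behind these counts. All 9 labelled libraries stood below all 3 DN libraries at 11 of the 768 regions (1.43%), against 2.83% of all node regions, and above them at 0, against 2.06%.

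DN replicate 4, the shortest DN list used with 19771 peaks, changed these counts most. Without it 31 node DN regions were lower in DP, 34 in LAG3_SP and 39 for the labelled mean, of 236 tested, against 4.24%, 4.88% and 4.64% of all regions, and in TDT_SP 22 were lower and 1 higher, against 2.24% lower among all. Regions that pass the filter through DN libraries alone are also in the fits with a library left out. Nothing is read from the size or direction of these counts. The DP count was 2 without DP replicate 1 or 2, against 0.98% and 0.919% lower among all regions, and without DP replicate 4 it was 3 lower and 2 higher, against 1.67% lower among all. The LAG3_SP count was 2 without LAG3_SP replicate 1, against 1.53% of all, and 3 lower and 1 higher without LAG3_SP replicate 2, against 2.58% lower among all. The TDT_SP count was 3 without DN replicate 1 or 2, against 0.57% and 0.692% of all. The labelled mean had 8 calls without LAG3_SP replicate 1 or 2 or TDT_SP replicate 2, 9 without DP replicate 1, 10 without DP replicate 2 or TDT_SP replicate 1 or 3, and 11 without DN replicate 2. In these 8 fits 2.1% to 2.43% of all regions were lower. The calls at Rttn, Parp12 and Hpcal1 for the labelled mean were kept without any 1 library. Rttn and Hpcal1 were at 0 in all 9 labelled libraries, so leaving out a labelled library removed only a 0 there.

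The 18 called regions were lower by 0.15 to 0.35 in rank value (limma adjusted p of 0.000298 to 0.0498). All 7 called in DP were also called in LAG3_SP, and all 9 called in a single group were among the 18. Fitted with the replicate block, 15 of the 18 kept their call, and those at Hpdl, Smim20 and Prag1 did not. The 7 calls in DP lost 1, at Cldn10, and the 9 in LAG3_SP lost 3, at Smim20, Vsir and Cldn10. In 7 of the 18 the DN replicate 4 library had none either, so that those calls rest on DN replicates 1 and 2. In 8 of the 18 every labelled library stood below every DN library, which held at 1.43% of the 768 node DN regions and at 2.83% of all node regions. At the 6 regions with any labelled peak, the mean was higher in TDT_SP than in DP at each.

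**Figure D5:**
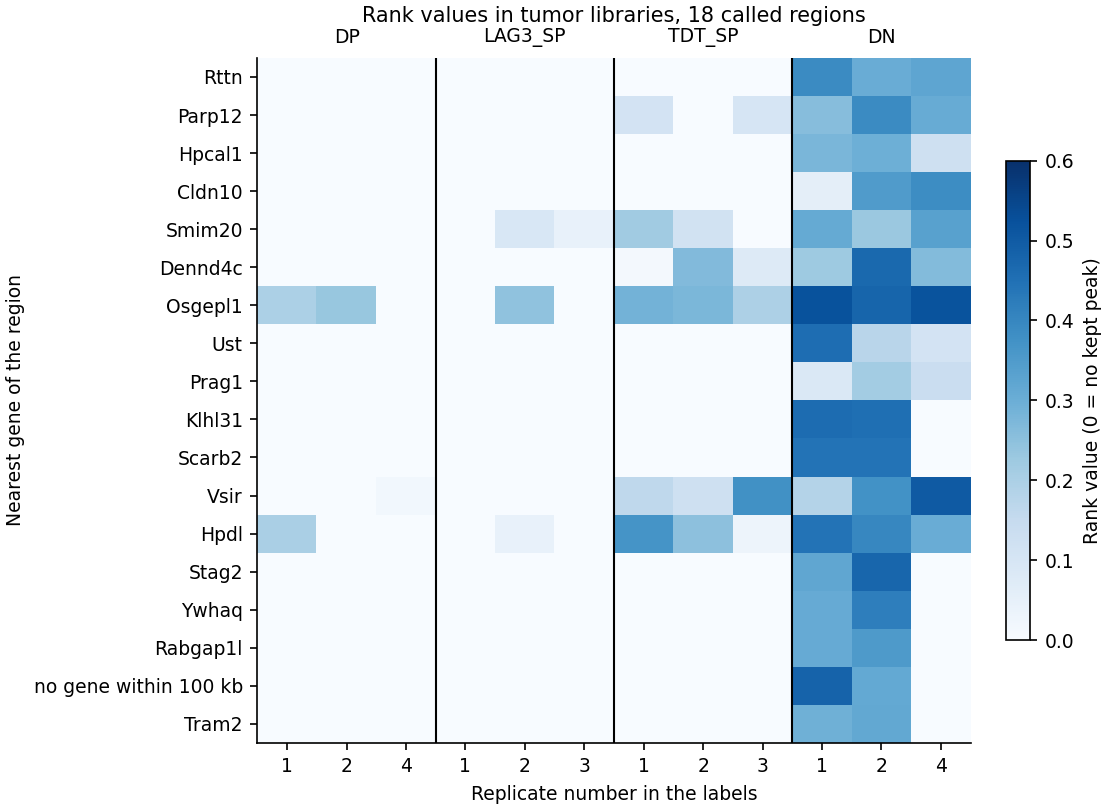
Rank value (colour, 0 where no kept peak overlaps) of the 18 node DN regions called lower for the labelled mean, with 1 row per region named by its nearest gene, ordered by p, and 1 column per long tumor library. Colour is nearly confined to the DN columns, with 6 rows holding values in TDT_SP, 3 of them in DP and 3 in LAG3_SP, and 7 rows are at 0 in DN replicate 4.

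The smallest p was at chr18:88975470-88975970, inside Rttn, a gene for centriole assembly. Its rank value was 0 in all 9 labelled libraries, against 0.391, 0.304 and 0.323 in DN. The region passed the filter through DN libraries alone, so it could only come out lower in labelled cells. Its labelled values, all at 0, add no spread. The difference was -0.34 with a standard error of 0.0395 (limma adjusted p = 0.000298). It was the only node DN region called in TDT_SP minus DN (difference -0.34, limma adjusted p = 0.00417), and with only TDT_SP and DN in the fit it was not called (limma adjusted p = 0.0768). In the nodes it was a weak member, with rank values of 0.128 in DLN DN and 0.017 in NDLN DN cells.

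At the Parp12 promoter printed above, the rank value was 0 in the 3 DP and 3 LAG3_SP libraries and 0.108, 0 and 0.0998 in TDT_SP, against 0.26, 0.39 and 0.305 in DN. All labelled libraries lay below all DN libraries. The difference was -0.32 in DP (SE 0.0559, limma adjusted p = 0.0052), -0.32 in LAG3_SP (SE 0.0559, limma adjusted p = 0.00432) and -0.25 in TDT_SP (SE 0.0559, limma adjusted p = 0.0622). With only the 2 groups compared in the fit, the limma adjusted p was 0.0496 in DP and 0.0552 in LAG3_SP. Parp12 was likewise near the limit in the nodes, at rank 14417 in DLN TDT_SP, against 13904 in DLN DN. The same region covered all 300 bases of the 4930599N23Rik promoter on the plus strand, so its assignment to Parp12 is uncertain.

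The Osgepl1 promoter also had kept peaks in labelled libraries. Its rank value was 0.197, 0.233 and 0 in DP, 0, 0.244 and 0 in LAG3_SP and 0.287, 0.275 and 0.196 in TDT_SP, against 0.521, 0.476 and 0.519 in DN. No labelled library reached the lowest DN library. The difference was -0.42 in LAG3_SP (SE 0.098, limma adjusted p = 0.0205), -0.36 in DP (limma adjusted p = 0.0503) and -0.25 in TDT_SP (limma adjusted p = 0.382). With only LAG3_SP and DN in the fit the call ended (limma adjusted p = 0.105).

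Vsir, the gene of the inhibitory receptor VISTA that keeps resting T cells quiescent, had a region at chr10:60346930-60347430, 329 bp from a transcription start. Its rank value was 0, 0 and 0.0175 in DP, 0 in all 3 LAG3_SP libraries and 0.162, 0.123 and 0.377 in TDT_SP, against 0.185, 0.374 and 0.503 in DN. DP and LAG3_SP lay below DN in each library, and TDT_SP overlapped DN. The difference was -0.35 in DP (SE 0.0874, limma adjusted p = 0.0372), -0.35 in LAG3_SP (limma adjusted p = 0.0287) and -0.13 in TDT_SP (limma adjusted p = 0.723). With only the 2 groups compared the limma adjusted p was 0.12 in DP and 0.114 in LAG3_SP, and with the replicate block it was 0.0331 in DP and 0.0502 in LAG3_SP. In the nodes it only just met the rule, with a rank of 14009 in DLN LAG3_SP, and the sign for the labelled mean turned when a peak had to have its summit inside the region (0.03, limma adjusted p = 0.68). A second gene lies over this region, so the assignment to Vsir is uncertain.

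Hpcal1, a calcium sensor of the neuronal family, had a region at chr12:17726443-17726943 with 0 in all 9 labelled libraries, against 0.278, 0.296 and 0.122 in DN. The difference was -0.23 for the labelled mean (SE 0.0421, limma adjusted p = 0.00497). Cldn10, a tight junction protein gene, had 0 in all 9 labelled libraries at chr14:118823253-118823753, against 0.0573, 0.349 and 0.385 in DN (difference -0.26, limma adjusted p = 0.0153, and 0.0438 with the replicate block). Ust, a sulfotransferase gene 12.96 kb from chr10:8531530-8532030, had 0 in the 9, against 0.459, 0.174 and 0.109 in DN (difference -0.25, limma adjusted p = 0.0242). With the replicate block, the limma adjusted p at Cldn10 was 0.0544 in DP and 0.107 in LAG3_SP. All 3 regions passed the filter through DN libraries alone, so they could only come out lower in labelled cells.

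Prag1 had a region 31 kb away, at chr8:36178537-36179037, with 0 in all 9 labelled libraries, against 0.0865, 0.215 and 0.138 in DN (difference -0.15, limma adjusted p = 0.0272, and 0.0716 with the replicate block). This region, too, passed the filter through DN libraries alone. The 2 other node DN regions at Prag1 had no kept peak in tumor, so that 1 of the 3 regions at this gene was still seen there.

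Dennd4c, an exchange factor for Rab10, lay 9.1 kb from chr4:86739168-86739668. The rank value was 0 in DP and LAG3_SP and 0.0114, 0.265 and 0.0776 in TDT_SP, against 0.224, 0.468 and 0.264 in DN (difference -0.28 for the labelled mean, limma adjusted p = 0.0179). Smim20, a gene for an assembly factor of cytochrome c oxidase, lay 76.73 kb from chr5:53355022-53355522. It had 0 in DP, 0, 0.0921 and 0.0461 in LAG3_SP and 0.219, 0.117 and 0 in TDT_SP, against 0.311, 0.228 and 0.335 in DN (difference -0.24, limma adjusted p = 0.0175, and 0.0627 with the replicate block). In LAG3_SP alone its limma adjusted p was 0.131 with the replicate block. Hpdl, a mitochondrial dioxygenase-like gene 3.35 kb from chr4:116824607-116825107, had 0.202, 0 and 0 in DP, 0, 0.0424 and 0 in LAG3_SP and 0.37, 0.249 and 0.0288 in TDT_SP, against 0.444, 0.399 and 0.303 in DN (difference -0.28, limma adjusted p = 0.0447, and 0.0514 with the replicate block). In all 3, TDT_SP held the highest labelled value, and at Dennd4c and Hpdl its highest library overlapped DN.

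The remaining 7 calls had no kept peak in DN replicate 4. They lay near Klhl31, in Scarb2 (a lysosomal membrane receptor), in Stag2 (a cohesin subunit), in Ywhaq (a 14-3-3 protein), in Rabgap1l (a Rab regulator), in Tram2 and, at chr17:52168298-52168798, with no protein-coding gene within 100 kb. All were at 0 in the 9 labelled libraries, with 0.294 to 0.482 in DN replicates 1 and 2 and limma adjusted p of 0.0332 to 0.0498. They passed the filter through DN libraries alone and could only come out lower.

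Some node DN regions had a kept peak in tumor cells of every group. The 11 held by all 12 libraries lay in or near Atp6v1g3, Ssbp3, Vopp1, Il23r, Cracr2a, Zfp59, Ank3, 2410004P03Rik, Cdyl and Tnfrsf12a, and 1 lay with no gene within 100 kb. They were named after their values were seen. The highest labelled means were in Cracr2a, a calcium channel regulator of T cells, at chr6:127617220-127617720, with mean rank values of 0.811 in DP, 0.71 in LAG3_SP and 0.714 in TDT_SP, against 0.599 in DN. Cdyl, a chromatin reader gene, had 0.632 in DP, 0.518 in LAG3_SP and 0.384 in TDT_SP, against 0.262 in DN, at chr13:35797909-35798409. Its difference of 0.25 for the labelled mean had the smallest p of any node DN region above 0, and it was not called (limma adjusted p = 0.225). Gadd45g, a stress-induced growth arrest gene 37.79 kb from chr13:51886011-51886511, was at 0 in the 3 TDT_SP and the 3 DN libraries, with 0.185, 0.0151 and 0.409 in DP and 0.553, 0.301 and 0 in LAG3_SP (difference of the labelled mean 0.16, limma adjusted p = 0.393). So no node DN region was called higher in labelled tumor cells with all 12 libraries, at an unadjusted limma p under 0.05 for 1 region in the labelled mean.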

How the data were processed

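Peak lists of 24 bulk ATAC-seq libraries were used. The submitters' processing notes name BWA, MACS2 and the build GRCm38 (mm10); for their versions, settings and any pooling, the sources used here give nothing. The deposited files list for each peak the authors' fold ratio over background, −log10 p and −log10 q, and a score, each computed within 1 library. No read counts are held, so depth is unknown and no count model was used.

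Autosomal and X peaks were ordered within a library by −log10 p (ties by fold ratio). A peak counted for a region when it overlapped by 1 bp. Each region took its nearest RefSeq protein-coding gene within 100 kb. Promoters and start sites came from a RefSeq promoter table. Start sites of 1 chromosome were not used here. Nearness does not show regulation. The node and tumor parts rank separate libraries; the tumor libraries were not used by the rule.

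The 4 tumor groups shared 1 fit in limma 3.58.1 (lmFit, eBayes with a trend, R 4.3.3), without a block, on 12 libraries with lists of 10000 or more peaks, and the strongest 19000 of each were used. The fit was tested on simulated data with normal noise. Many real values are 0, so that test does not cover regions at 0 in whole groups, and nothing is read from it here. Other steps used Python 3.11.15, pandas 2.3.3 and numpy 2.4.6. Same-numbered tumor libraries of different groups deviated together weakly, with correlations of 0.0387 to 0.261 over 14 pairs, 9 of them over 0.1. For DN and DP they were 0.107 to 0.261 over the 3 pairs. Equal numbers may thus mark pairs, and the labels do not say so. The reported p-values come from the fit without the block and leave any such pairing out of account. The blocked value stands beside each named call that it ends. Alternatives were other list lengths, presence or absence, summit overlap, no filter, ranks by fold ratio, a replicate block, fewer groups, and each library left out.

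The text names the 10 members with the largest lower DN rank value, up to 10 called members per comparison, up to 4 per gene list, and genes nearest to 3 or more members. All 18 called members are named, including those beyond 10 in the comparison of the labelled mean. Members, lists and tests were chosen with earlier results of these data known.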

Additional observations from a re-analysis of the deposited data

How the results depend on the processing

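The number of node DN regions was 609 to 784 with 10000 or 12000 peaks per list, with summits inside the region or with ranks by fold ratio, and it was 26 when the whole labelled lists had to lack a peak. Of the 768, only 194 overlapped a member with 10000 peaks, 440 with 12000 and 512 with fold ratio ranks. Calls in DP minus DN were 1 with 14000 peaks, 0 with all peaks, 0 with 4000 peaks, 1 with fold ratio ranks and 3 with only the groups compared. Of all regions tested, 1.37%, 0.00923%, 0%, 0.714% and 0.714% were lower in these fits. For LAG3_SP the calls were 1, 0, 0, 3 and 0, against 1.86%, 0.00923%, 0.015%, 0.958% and 0% lower among all regions tested. For TDT_SP the calls were 0 with all peaks, with 4000 peaks, with fold ratio ranks and with only the groups compared, 7 by presence or absence and 4 with no filter. In the same order, 0%, 0%, 0.24%, 0%, 0.735% and 0.576% of all regions tested were lower in TDT_SP. For the labelled mean the calls were 1 with 14000 peaks, 5 with all peaks, 0 with 4000 peaks, 8 by presence or absence, 11 with summits inside, 8 with no filter and 5 with fold ratio ranks. Of all regions tested, 1.73%, 0.185%, 0%, 1.07%, 2.81%, 1.89% and 1.31% were lower for the labelled mean. Of the 18 regions called in the reported fit, the calls for the labelled mean held 1 with 14000 peaks (16 of the 18 were tested), 1 with all peaks, 6 by presence or absence, 11 with summits inside, 8 with no filter and 4 with fold ratio ranks. The fit of only the groups compared is the same as the one reported for the labelled mean. Only 6 node DN regions could be tested with 4000 peaks. Leaving out 1 library gave 2 to 31 calls for DP, 2 to 34 for LAG3_SP, 1 to 23 for TDT_SP and 8 to 39 for the labelled mean. The shares lower among all regions were then 0.919% to 4.24%, 1.53% to 4.88%, 0.185% to 2.24% and 1.9% to 4.64%. With the replicate block, calls were 6, 8, 1 and 20 for DP, LAG3_SP, TDT_SP and the labelled mean, and 15 of these 20 were among the 18. Of all regions tested, 2.41%, 2.43%, 0.226% and 3% were lower with the block. The sign of 1 called region turned, that of Vsir with summits inside (0.0317). Mean shares of node DN regions were 21.1% in DP, 24.1% in LAG3_SP and 37.2% in TDT_SP, against 40.5% in DN, in whole lists with the short lists included, and 0.228%, 0.174% and 0.304%, against 0.228% in DN, among 4000 peaks. Over all node regions the whole-list means were 64.2% in DP, 74.5% in LAG3_SP and 83.6% in TDT_SP, against 67.5% in DN. The DP and DN means include 1 short list each (n = 4), whose whole lists held 0.26% and 0.781% of the node DN regions. LAG3_SP and TDT_SP have no short tumor list (n = 3), so the whole-list means are not like for like. For single called regions, 349 of 666 alternative values kept their call, 316 lost it with the same sign and 1 turned. The cause of these changes was not tested. List length limits what can be seen.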
